A study of Mus musculus with 16 samples.

Results

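The vascular endothelial growth factor and angiopoietin system was followed in the mouse aorta through the 10 genes of its ligands and receptors: the ligands Vegfa, Vegfb, Vegfc and Vegfd, their receptors Flt1, Kdr and Flt4, the angiopoietins Angpt1 and Angpt2, and their receptor Tek. The 10 genes were taken by symbol from the 31055 features of the count tables. In these libraries, counted in cells that met the gate of a single class, Vegfa, Vegfd and Angpt1 had their highest median levels in fibroblasts, Vegfb in vascular smooth muscle cells (VSMCs), and Vegfc, Angpt2 and the 4 receptors in endothelium. Tek, known as an endothelial receptor, was also read in fibroblasts at 15.1 CPM (median of 16 libraries), and Angpt2, known from endothelium, also in VSMCs at 27.3 CPM. A level in CPM is the gene's UMIs (molecules counted) per 1000000 UMIs of the same class in the same library. With low counts filtered out, none of the 10 genes passed the test between the genotypes in any cell class at either time.

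Vegfa is the main ligand of blood vessel growth and acts through the receptor tyrosine kinase Kdr, while Flt1 binds Vegfa and Vegfb and can act as a trap for them. Vegfc and Vegfd bind Flt4, the receptor of lymphatic growth, and, once cut by proteases, also Kdr. Angpt1, classically made by mural cells, activates Tek and keeps vessels quiet, and Angpt2, known as a product of activated endothelium, can block or activate the same receptor depending on context.

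The 16 libraries were 10x Chromium 3' v3 single-cell libraries of the aorta from root to arch, from male 129S6/SvEv mice that all carried the tamoxifen-inducible Myh11-CreER transgene and were injected with tamoxifen from 6 weeks of age. There were 2 Smad3+/+ and 2 Smad3SmKO libraries collected 10 weeks after the deletion, and 5 Smad3+/+ and 7 Smad3SmKO libraries at 18 weeks. In Smad3SmKO mice both floxed copies of Smad3, a transducer of TGF-β signals, are meant to be removed in smooth muscle only, so that fibroblasts, endothelium and leukocytes keep the gene. The transgene lies on the Y chromosome, which restricts the study to males. Live nucleated cells were sorted after a 30 or 60 min digestion, and some mice also carried a GFP tracer allele activated by the same Cre. By the labels, the tracer was in both Smad3+/+ libraries and in neither Smad3SmKO library of 10 weeks, and in every 60 min and no 30 min library of 18 weeks. The GFP counts in VSMCs went against this label in 4 libraries. Both Smad3SmKO libraries of 10 weeks, labelled without tracer, stood at 18.7 and 21.4 CPM of GFP, beside 25.3 and 35.0 CPM in the Smad3+/+ libraries of that time. Smad3+/+ 18 weeks replicates 4 and 5, labelled with tracer, held no GFP UMI in VSMCs, beside 14.9 to 18.3 CPM in the 3 libraries labelled Smad3SmKO with tracer at 18 weeks. The cause was not tested, and calls that were lost without these 4 libraries are given with both values. Each batch had a single digestion time.

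The 66349 deposited cells held 508775009 UMIs, between 12539539 and 52843031 per library, and 50858 cells (76.7%) passed the limits on genes, UMIs and mitochondrial share. Cells were assigned by marker UMIs: VSMCs by Myh11, fibroblasts by Dcn, endothelium by Pecam1 and Cdh5, leukocytes by Ptprc and Tyrobp. This gave 8950 VSMCs (22 to 1706 per library, median depth 5812 to 21902 UMIs per cell), 36066 fibroblasts (196 to 5505, 4318.5 to 26326 UMIs), 3303 endothelial cells (31 to 469, 3847 to 23400 UMIs) and 3357 leukocytes (13 to 948, 3316 to 10065 UMIs). A total of 2442 kept cells (4.80%) met more than 1 gate. The overlap was small for VSMCs (3.37%) and fibroblasts (5.86%) but reached 62.9% of the endothelium, of which 1813 cells also met the fibroblast gate and 236 the VSMC gate. Levels of the members by class are therefore given in cells of 1 class, among them 1226 endothelial cells. Levels by genotype, digestion time or VSMC side are over all cells of the gate unless cells of 1 class are named. So are those of marker splits within fibroblasts and leukocytes. Each result is given with and without the cells that met several gates where that changes it. In the endothelial cells of 1 class all 7 endothelial markers stood at 10 CPM or more, and the summed level of the 7 fibroblast markers was 655 CPM. The library labelled Smad3SmKO 18 weeks replicate 7 stood apart with 196 fibroblasts, 31 endothelial cells of which 3 were of 1 class, and 13 leukocytes, and it was left out of endothelial levels in cells of 1 class. Barcodes shared between libraries were few, at most 11 for any pair of libraries. At 18 weeks Smad3 itself was read in VSMCs at 7.44 ± 2.79 CPM in Smad3+/+ (SD, n = 5) and at 9.32 ± 4.37 CPM (SD, n = 7) under the Smad3SmKO label. At 10 weeks the same 2 groups stood at 5.04 ± 0.501 and 6.63 ± 2.05 CPM (SD, n = 2 each). Its count was thus not lower under the Smad3SmKO label, whereas the study reported less Smad3 RNA and protein in Smad3SmKO aortas than in controls. Of the 11852 genes tested in VSMCs at 18 weeks 4 passed between genotypes, among them Pmepa1, a known target of TGF-β signals, which was lower under that label by a log2 difference of -0.98 (edgeR adjusted p = 0.0034), and GFP, which was higher. Reads of this chemistry come from the 3' end of the transcript, and whether they cover the deleted part of the gene was not tested.

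The promoters of the receptors Flt1, Kdr and Tek are shown because these endothelial receptors differed in how far their RNA reached into other classes. Each is the 250 bases before the RefSeq start, 5′ to 3′ on the strand of the gene, from RefSeq on GRCm38.p6, and capitals mark GGAAG or its reverse complement CTTCC, the core recognised by ETS factors, which are known to act at endothelial genes. The windows lie at chr5:147726012-147726261 (minus strand) for Flt1, chr5:75978456-75978705 (minus strand) for Kdr and chr4:94739039-94739288 (plus strand) for Tek.
Flt1: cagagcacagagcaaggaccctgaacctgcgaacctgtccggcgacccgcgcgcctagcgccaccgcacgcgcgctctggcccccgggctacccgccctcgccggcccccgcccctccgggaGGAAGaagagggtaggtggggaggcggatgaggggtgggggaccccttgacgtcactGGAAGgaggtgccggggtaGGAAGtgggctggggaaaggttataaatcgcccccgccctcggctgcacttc
Kdr: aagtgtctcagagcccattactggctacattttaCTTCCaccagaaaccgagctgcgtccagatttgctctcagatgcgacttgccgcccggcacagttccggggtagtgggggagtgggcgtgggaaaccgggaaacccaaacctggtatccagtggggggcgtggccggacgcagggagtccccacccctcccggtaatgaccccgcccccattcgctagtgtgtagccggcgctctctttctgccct
Tek: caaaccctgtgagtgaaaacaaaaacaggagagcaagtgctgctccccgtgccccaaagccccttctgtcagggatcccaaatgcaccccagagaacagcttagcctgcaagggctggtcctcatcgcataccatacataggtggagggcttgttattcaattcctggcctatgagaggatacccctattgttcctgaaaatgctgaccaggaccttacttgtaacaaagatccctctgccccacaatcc
The Flt1 window held 3 matches, the Kdr window 1 and the Tek window 0. Of the 10 genes, 8 had a promoter entry with 9 windows in all, since Vegfa had a pair, and 6 of the 9 windows held the motif, beside 64.1% of 32851 mouse promoters. The hypoxia response core ACGTG (or CACGT) occurred in 1 of the Vegfa windows and in no other member, beside 16.6% of promoters, and the Smad-binding core CAGAC (or GTCTG) occurred in both Vegfa windows only, beside 42.2%. A match of letters is not a bound site. On mm10 the ligand genes lie at chr17:46016993-46032369 (Vegfa), chr19:6982473-6987651 (Vegfb), chr8:54077606-54187096 (Vegfc), chrX:164373378-164402650 (Vegfd), chr15:42424723-42676977 (Angpt1) and chr8:18690263-18741562 (Angpt2), and the receptor genes at chr5:147561604-147726011 (Flt1), chr5:75932827-75978458 (Kdr), chr11:49609263-49652739 (Flt4) and chr4:94739289-94874976 (Tek).

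Among the ligands, Vegfa was read mainly in fibroblasts. Its level in CPM had a lowest, median and highest value of 27.1, 46.0 and 113 in fibroblasts over 16 libraries, 0, 7.72 and 29.1 in VSMCs, 3.65, 17.6 and 44.9 in endothelium over 15 libraries, and 0.553, 4.96 and 93.4 in leukocytes. Fibroblasts stood above VSMCs in 16 of 16 libraries and held 92.3% of the gene's UMIs in the 4 classes, while holding 74.4% of all UMIs of those classes. The fold change from VSMCs to fibroblasts was 2.57 on the log2 scale (SE 0.26, edgeR adjusted p = 1.7e-12). Endothelium, by contrast, was below fibroblasts by a log2 difference of -0.87 (SE 0.23, edgeR adjusted p = 0.0021) over all cells of the gates and of -1.60 (SE 0.38, adjusted p = 0.00031) in cells of 1 class. All class contrasts come from an edgeR fit with the library as a block, in which 8 of 10 members passed an adjusted p of 0.05 between fibroblasts and VSMCs. Since 70.4% of 12059 genes passed there, the counts say little and the sizes carry the description.

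Vegfb, a ligand of Flt1 tied to heart and muscle tissue, was the VEGF ligand that stood higher in VSMCs than in the other classes. It was read at 45.5, 78.4 and 96.8 CPM (lowest, median, highest) in VSMCs and at 17.9, 42.2 and 55.9 in fibroblasts, 11.6, 26.9 and 54.7 in endothelium and 0, 20.6 and 35.4 in leukocytes. VSMCs were above fibroblasts in 15 of 16 libraries and above leukocytes in 16 of 16. The difference of fibroblasts from VSMCs was -1.05 (log2, SE 0.08, edgeR adjusted p = 5.0e-16).

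The lymphatic ligands Vegfc and Vegfd were both higher in fibroblasts than in VSMCs, and Vegfd was low in every other class. Vegfd was read at 13.4, 87.0 and 191 CPM in fibroblasts, and its medians were 4.77 in VSMCs, 2.68 in endothelium and 1.39 in leukocytes. Fibroblasts held 98.6% of its UMIs and were the highest class in every library. The fold change from VSMCs was 3.85 (log2, SE 0.32, edgeR adjusted p = 3.9e-15). Vegfc was read at 23.6, 35.5 and 57.0 CPM in fibroblasts, 5.58, 15.6 and 43.7 in VSMCs and 7.30, 41.2 and 128.2 in endothelium, with a median of 0 in leukocytes. Fibroblasts exceeded VSMCs by 1.21 (log2, SE 0.18, edgeR adjusted p = 4.1e-08), and endothelium exceeded fibroblasts in 9 of 15 libraries, which is not a separation: the log2 difference was -0.34 (SE 0.17, edgeR adjusted p = 0.12) over all cells of the gates and 0.10 (SE 0.24, adjusted p = 0.73) in cells of 1 class.

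The angiopoietins differed in where they were read. Angpt1 was read in fibroblasts at 5.82, 24.7 and 55.5 CPM, with medians of 0.997 in VSMCs, 3.14 in endothelium and 0 in leukocytes. Fibroblasts held 98.6% of its UMIs and exceeded VSMCs by 4.10 (log2, SE 0.18, edgeR adjusted p = 6.7e-26), so the ligand classically assigned to mural cells was nearly all in the Dcn class. Angpt2 showed the opposite order of these classes. It was read at 17.8, 27.3 and 57.4 CPM in VSMCs and 5.79, 9.70 and 45.5 in fibroblasts, with VSMCs higher in 15 of 16 libraries and a log2 difference of fibroblasts from VSMCs of -1.21 (SE 0.20, edgeR adjusted p = 5.7e-07). In endothelium Angpt2 stood at 16.5, 34.6 and 191 CPM, higher than in VSMCs in 9 of 15 libraries and than in fibroblasts in 14 of 15. Its log2 difference of endothelium from fibroblasts was 0.66 (edgeR adjusted p = 0.012) over all cells of the gates, 1.74 (adjusted p = 8.8e-08) in cells of 1 class, 0.52 (adjusted p = 0.058) without Smad3+/+ 18 weeks replicate 4, and 0.39 (adjusted p = 0.22) without the 4 libraries at odds with their tracer label.

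The order of endothelium and VSMCs turned on the cells that met several gates for 2 ligands. For Angpt2 the log2 difference of endothelium from VSMCs was -0.55 (SE 0.22, edgeR adjusted p = 0.030) over all cells of the gates and 0.58 (SE 0.26, adjusted p = 0.046) in cells of 1 class. For Vegfd it was 1.58 (SE 0.36, edgeR adjusted p = 0.00015) over all cells and -1.17 (SE 0.61, adjusted p = 0.086) in cells of 1 class. The fibroblast level of Vegfd and the share of endothelial cells that also met the fibroblast gate move with this difference, and their part in it was not tested. Over all cells of the gates 10 of 10 members passed between endothelium and VSMCs, where 64.9% of genes did, and 8 of 10 passed in cells of 1 class, where 65.7% of 11149 genes did.

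**Figure D1:**
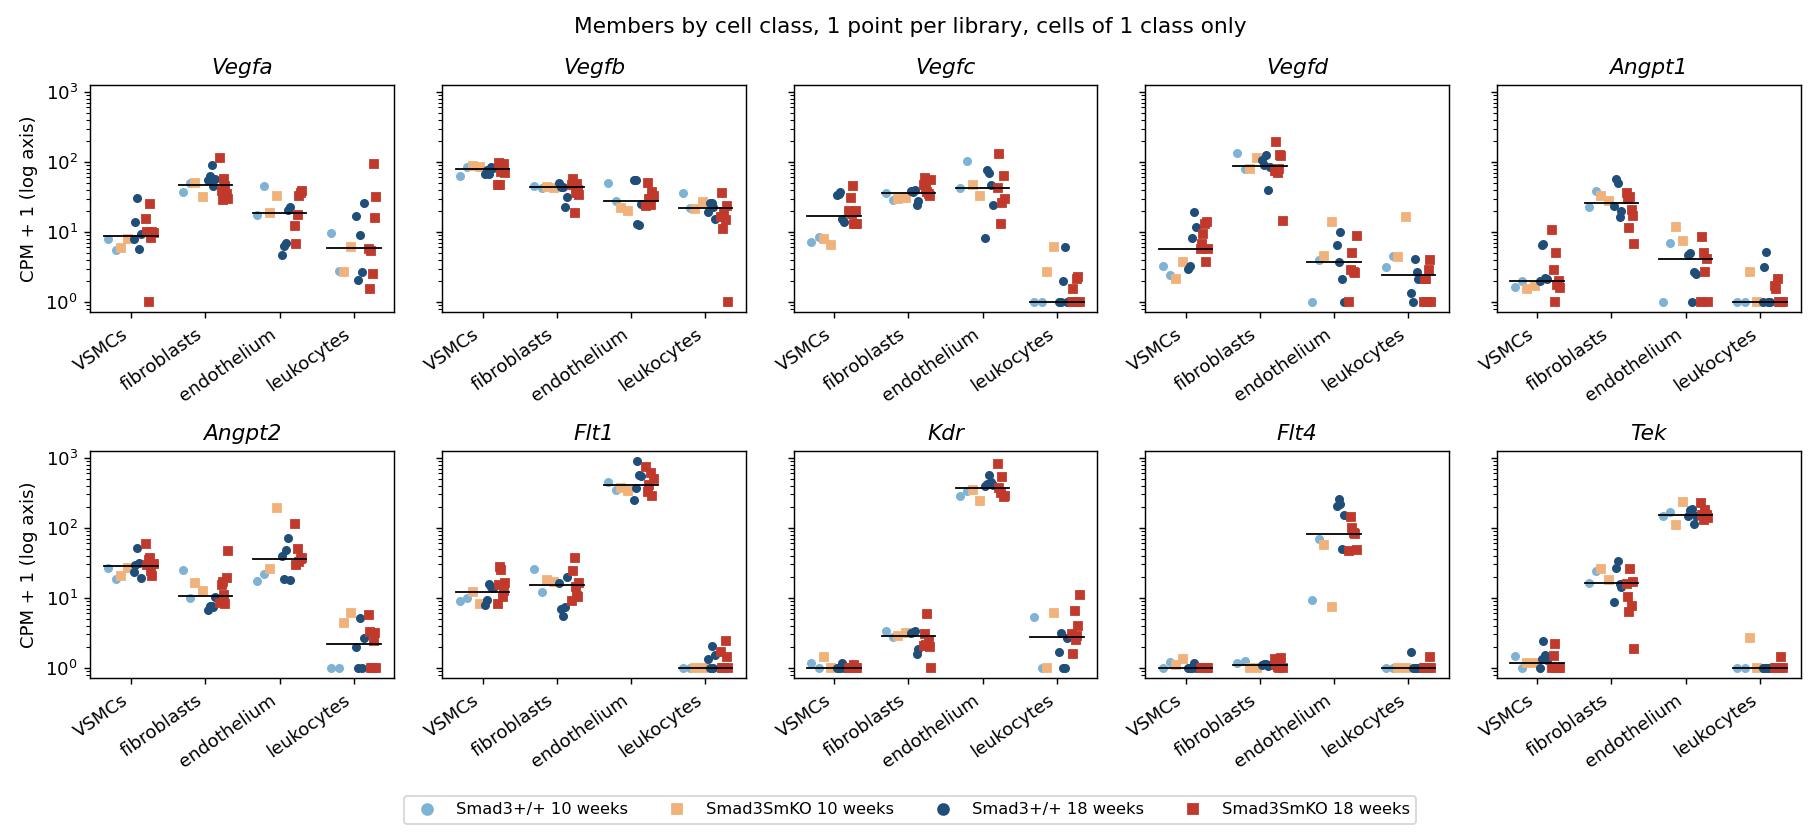
Level of each of the 10 genes (CPM + 1, log axis) by cell class, with 1 point per library in cells of 1 class, shapes and colours for genotype and weeks, and a black line at the median over libraries. Kdr and Flt4 sit near the floor outside endothelium, whereas Tek also sits at a median of 15.1 CPM in fibroblasts and Flt1 at 11.2 in VSMCs and 14.5 in fibroblasts.

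Among the receptors, Kdr and Flt4 were endothelial with little elsewhere. Kdr was read at 241, 368 and 821 CPM in endothelium (lowest, median and highest of 15 libraries), and at medians of 0 in VSMCs, 1.82 in fibroblasts and 1.75 in leukocytes. Flt4 was read at 6.35, 80.1 and 259 CPM in endothelium, with a highest library of 0.338 in VSMCs, 0.398 in fibroblasts and 0.669 in leukocytes. Endothelium held 85.6% of Kdr UMIs and 94.6% of Flt4 UMIs while holding 1.95% of all UMIs of the 4 classes. Relative to fibroblasts, endothelium was higher by 5.40 for Kdr (log2, SE 0.22, edgeR adjusted p = 2.7e-26) and by 6.23 for Flt4 (SE 0.25, adjusted p = 4.2e-27), and these differences grew to 7.62 and 9.28 in cells of 1 class. Between endothelium and fibroblasts 8 of 10 members passed over all cells of the gates, where 36.2% of genes did, and 9 of 10 in cells of 1 class, where 61.4% did.

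Flt1 was highest in endothelium but had a low level in both mural and stromal cells. It was read at 252, 410 and 894 CPM in endothelium, 6.90, 11.2 and 26.3 in VSMCs and 4.43, 14.5 and 36.5 in fibroblasts, and its highest leukocyte library stood at 1.39. Fibroblasts and VSMCs did not differ beyond their spread (log2 difference 0.34, SE 0.26, edgeR adjusted p = 0.26), with fibroblasts higher in 10 of 16 libraries. Fibroblasts held 49.0% of Flt1 UMIs, beside 41.7% in endothelium, while these classes held 74.4% and 1.95% of all UMIs. After thinning each cell of 1 class to 2000 UMIs, the depth below which no cell was kept, 50.6% of endothelial cells, 2.78% of fibroblasts, 2.07% of VSMCs and 0.103% of leukocytes held a Flt1 UMI (69.2%, 9.20%, 8.75% and 0.339% without thinning). The shares in fibroblasts and VSMCs were thus above that of leukocytes. The part of free RNA in these shares was not tested.

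Tek was the receptor with the clearest second site. It was read at 109, 151 and 235 CPM in endothelium and at 0.863, 15.1 and 32.5 in fibroblasts, against medians of 0.169 in VSMCs and 0 in leukocytes. Endothelium was above fibroblasts in 15 of 15 libraries, and fibroblasts were above VSMCs in 16 of 16. The log2 difference of fibroblasts from VSMCs was 5.24 (SE 0.33, edgeR adjusted p = 1.4e-19) over all cells and 5.92 (SE 0.27, adjusted p = 7.4e-26) in cells of 1 class. Of the Tek UMIs in cells of 1 class, 79.5% came from fibroblasts and 20.2% from endothelium, which held 74.4% and 1.95% of all UMIs. At 2000 UMIs per cell, 3.02% of fibroblasts held a Tek UMI, beside 0.046% of VSMCs, 0.024% of leukocytes and 25.7% of endothelial cells, and without thinning the shares were 10.5%, 0.197%, 0.068% and 54.3%.

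The ratio of receptor counts also differed between the classes. Endothelial cells of 1 class held 3467 Kdr and 1274 Tek UMIs, or 2.72 Kdr per Tek, whereas fibroblasts of 1 class held 535 Kdr and 5006 Tek UMIs, or 0.107. For Flt1 per Kdr the ratio was 1.18 in endothelium and 8.96 in fibroblasts. Each fibroblast ratio was far from the endothelial one. The summed level of 7 endothelial markers in fibroblasts of 1 class was 13.7 CPM, against 4333 CPM in endothelium. These markers include Pecam1 and Cdh5, so the low level in fibroblasts of 1 class was partly set by the gates. Over all cells of the fibroblast gate it was 56.0 CPM. The part of endothelial RNA in the fibroblast counts was not tested.

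Leukocytes were low in most members. Against fibroblasts 9 of 10 members passed, where 76.9% of genes did, among them Vegfc with a log2 difference of -3.08 (SE 0.26), Vegfd with -3.36 (SE 0.34), Angpt1 with -3.22 (SE 0.21) and Tek with -2.86 (SE 0.33). These differences were larger in cells of 1 class, at -5.40, -5.70, -5.37 and -6.64. Kdr was higher in leukocytes, by 0.83 (log2, SE 0.38, edgeR adjusted p = 0.044), and in cells of 1 class this difference was 0.39 (SE 0.40, adjusted p = 0.37). The Vegfa difference of leukocytes from fibroblasts was -1.43 (log2, SE 0.27, edgeR adjusted p = 5.7e-06). Within leukocytes the 843 cells with S100a8 and S100a9, the calprotectin genes of neutrophils, held Vegfa at 0, 27.2 and 107 CPM (lowest, median, highest of 12 libraries), and the 1926 cells with C1q genes, known in macrophages, at a median of 6.94. Against VSMCs 8 of 10 members passed (79.9% of genes), and against endothelium 9 of 10 (74.2% of genes).

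Endothelial cells with lymphatic markers (at least 2 UMIs of Prox1, Lyve1, Mmrn1 and Ccl21a) were 260 cells, of which 223 were of 1 class, in the 10 libraries with at least 10 of them. Counted in the cells of 1 class, Flt4 was read there at 219, 440 and 1020 CPM (lowest, median, highest of 10 libraries), beside 6.35, 26.97 and 46.6 in the remaining endothelium of 15 libraries, and the ranges did not overlap. Flt1 went the other way, at 0, 15.97 and 204 CPM with and 330, 533 and 1042 without lymphatic markers, again with no overlap. Kdr and Tek overlapped, with medians of 368 with and 343 without for Kdr and of 125 and 155 for Tek. Over all cells of the gate, which include those that also met the fibroblast gate, the Kdr and Tek medians were instead 291 and 124 with and 79.7 and 47.9 without, so the order of Tek turned on those cells. Among ligands in cells of 1 class, the medians with and without lymphatic markers were 7.30 and 17.7 CPM for Vegfa, 3.17 and 42.7 for Vegfc, 18.1 and 36.8 for Angpt2 and 58.3 and 22.8 for Vegfb. The split is a description with no test.

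**Figure D2:**
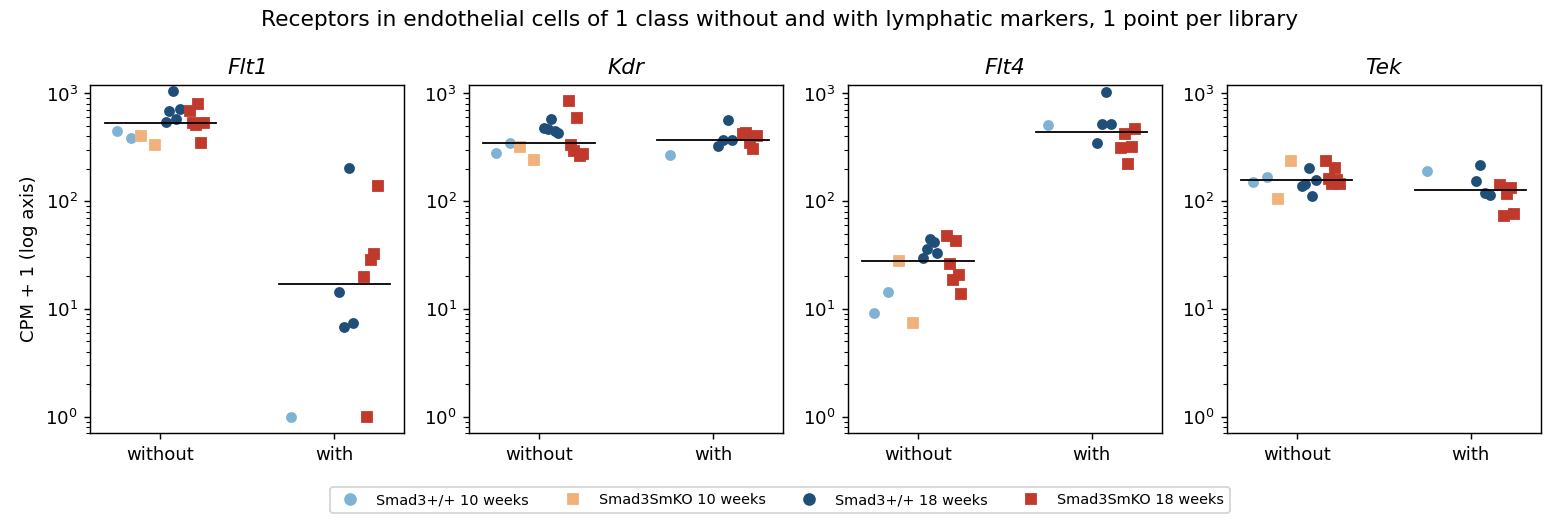
Levels of the 4 receptors (CPM + 1, log axis) in endothelial cells of 1 class without and with lymphatic markers, 1 point per library and a black line at the median. The Flt4 points with lymphatic markers start at 219 CPM, above the highest library without them at 46.6, the Flt1 points show the opposite order with medians of 15.97 and 533, and Kdr and Tek overlap.

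The share of endothelial cells with lymphatic markers varied between libraries. At 18 weeks it was 16.4%, 14.7%, 10.5%, 2.86% and 5.86% in the 5 Smad3+/+ libraries and between 0% and 12.97% in the 7 libraries labelled Smad3SmKO. The ranges overlapped. Fibroblasts were also uneven. The 13703 fibroblasts with an Hsd11b1 UMI held Vegfd at 10.9, 147 and 279 CPM, beside 14.1, 49.2 and 93.3 in the 22363 without it, and their medians were higher for Flt1 (20.2 against 11.2) and Angpt2 (13.7 against 7.45). Their medians were lower for Vegfa (35.2 against 53.6), Angpt1 (19.2 against 28.4) and Tek (10.7 against 17.4).

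Within VSMCs, Vegfc and Angpt2 were higher on the side with more Notch3 and Enpep. VSMCs with more Notch3 and Enpep than Ptprz1 and Tes UMIs (888 cells) were compared with those with the reverse (5953 cells) in the 14 libraries that had both. Vegfc was read at 2.52, 15.3 and 40.0 CPM on the Notch3 and Enpep side and at 5.33, 12.3 and 29.3 on the other, higher in 9 of 14 libraries, and the difference was 0.78 (log2, SE 0.16, edgeR adjusted p = 0.00035). Angpt2 was read at 19.2, 32.04 and 57.1 beside 12.9, 23.6 and 56.5, higher in 11 of 14 libraries, with a difference of 0.48 (log2, SE 0.12, edgeR adjusted p = 0.0024). Without the 4 libraries at odds with their tracer label the Angpt2 difference was 0.43 (edgeR adjusted p = 0.059), while Vegfc still passed. Vegfb stood at 31.1, 69.7 and 95.8 beside 53.9, 81.2 and 104, lower in 11 of 14 libraries, but its difference of -0.15 (SE 0.08, edgeR adjusted p = 0.14) did not pass. Without Smad3+/+ 18 weeks replicate 2, or without either of the libraries labelled Smad3SmKO 18 weeks replicates 5 and 7, Vegfc fell below the filter on low counts and could not be tested. The 3 genes were the members tested, and 2 of 3 passed where 25.8% of 6697 genes did. Vegfa was too low for the test, on 97 and 389 UMIs. Its medians were 9.67 and 5.68 CPM, higher on the Notch3 and Enpep side in 13 of 14 libraries and lower in 0. Also untested, Flt1 was higher there in 10 of 14 libraries and Vegfd lower in 10 of 14. The ranges of the sides overlapped for each gene. The summed pericyte markers had medians of 353 and 366 CPM but wide ranges. They lay between 45.6 and 2069 CPM on the Notch3 and Enpep side and between 195 and 1123 on the other. They were higher on the Notch3 and Enpep side in 6 of 14 libraries. The summed VSMC markers had medians of 54664 and 53527 CPM. The part of pericyte-like cells in the Vegfc and Angpt2 differences was not tested. Counted in cells of 1 class, the differences were 0.75 for Vegfc (edgeR adjusted p = 0.00096) and 0.41 for Angpt2 (adjusted p = 0.018), where 25.4% of genes passed.

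**Figure D3:**
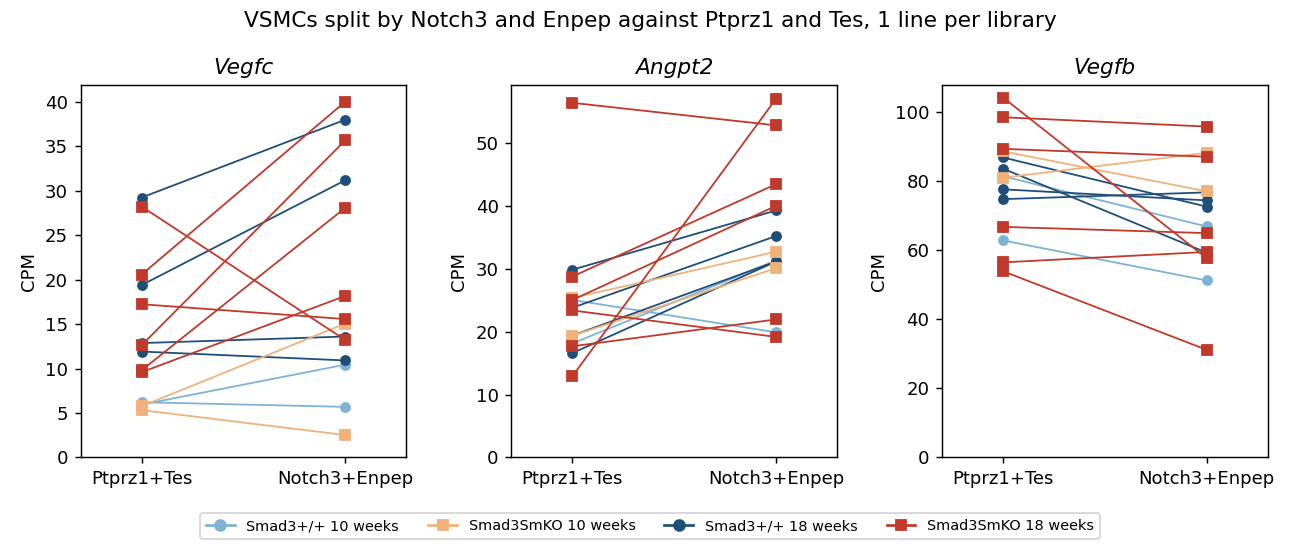
Levels (CPM) of Vegfc, Angpt2 and Vegfb in VSMCs with more Ptprz1 and Tes and with more Notch3 and Enpep UMIs, with 1 line for each of the 14 libraries, coloured by genotype and weeks. Vegfc is higher on the Notch3 and Enpep side in 9 of 14 lines and Angpt2 in 11 of 14, while Vegfb is lower there in 11 of 14.

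The genotype comparison asked whether the loss of Smad3 in smooth muscle changes these genes in the cells that lost it or in their neighbours. In VSMCs at 18 weeks the levels of the 2 genotypes, taken over all cells of the gate, lay over each other. Vegfb was read at 66.4, 77.0 and 83.2 CPM in Smad3+/+ and 44.5, 68.3 and 99.0 under the Smad3SmKO label, and Angpt2 at 19.9, 29.2 and 50.9 beside 19.9, 31.0 and 54.1. The log2 differences (Smad3SmKO minus Smad3+/+) were 0.02 (SE 0.22) for Vegfb, 0.03 (SE 0.19) for Angpt2, -0.03 (SE 0.24) for Vegfc, 0.07 (SE 0.43) for Vegfa, 0.37 (SE 0.41) for Vegfd, 0.01 (SE 0.61) for Angpt1 and 0.10 (SE 0.37) for Flt1. None of the 7 members tested passed in edgeR, where 0.0337% of 11852 genes did, and none had an unadjusted p below 0.05. At 10 weeks the differences lay between -0.27 (Angpt1) and 0.26 (Vegfb), and 0% of genes passed. For Vegfb the 2 libraries labelled Smad3SmKO stood at 84.2 and 88.0 CPM, above 61.3 and 83.2 in Smad3+/+, and the groups of 2 did not overlap in 28.2% of 11840 genes. Kdr, Flt4 and Tek were too low in VSMCs to be tested.

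In fibroblasts, which keep Smad3 in this model, Flt1 and Angpt2 had the largest differences among the 9 members tested at 18 weeks. Flt1 stood at 17.2, 7.02, 5.39, 8.00 and 19.5 CPM in the 5 Smad3+/+ libraries and at 11.6, 14.4 and 41.1 (lowest, median, highest) in the 7 labelled Smad3SmKO, so the groups overlapped. The log2 difference was 0.72 (SE 0.30), with an edgeR adjusted p of 1.0. Of the 4 batches with both genotypes, 3 had a higher level under the Smad3SmKO label, by 0.86, 0.99 and 0.94 in the batches digested for 30 min and by -0.07 in the batch digested for 60 min (log2 of the mean CPM + 1). In cells of 1 class the difference was 0.61 (SE 0.37). The summed endothelial markers in fibroblasts moved the same way, with medians of 41.8 CPM in Smad3+/+ (29.7 to 60.0) and 65.3 (13.2 to 101) in the other group over all cells of the gate, and 13.7 and 10.8 in cells of 1 class. Their part in the Flt1 difference was not tested.

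Angpt2 in fibroblasts stood at 5.80, 7.37, 6.39, 6.30 and 8.88 CPM in Smad3+/+ and at 7.27, 14.4 and 45.2 in the libraries labelled Smad3SmKO. Of these libraries 5 of 7 lay above every Smad3+/+ library, and the other two lay inside its range. The log2 difference was 0.91 (SE 0.45, edgeR adjusted p = 1.0), and it was above 0 in 4 of 4 batches (1.25, 0.21, 0.34 and 1.07). The highest value, 45.2, belonged to replicate 7 with its 196 fibroblasts, in a batch with no Smad3+/+ library, which does not enter the fitted difference. Vegfc stood at 23.3, 36.3 and 38.6 beside 30.2, 39.7 and 56.4 CPM, a difference of 0.27 (SE 0.15) that was above 0 in 4 of 4 batches, and Vegfa at 43.4, 55.7 and 87.7 beside 26.1, 36.3 and 108, a difference of -0.33 (SE 0.20). Angpt1, at 15.2, 21.8 and 52.7 beside 5.68, 18.4 and 32.5 CPM, differed by -0.38 (SE 0.34), below 0 in 4 of 4 batches. The members most particular to fibroblasts by class, Vegfd and Tek, differed by 0.20 (SE 0.53) and -0.16 (SE 0.35). Over all genes 0% of 14626 passed, and 2.39% had an unadjusted p below 0.05.

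In endothelium at 18 weeks the ranges of Flt1, Kdr and Tek overlapped widely between the genotypes. In cells of 1 class Flt1 stood at 252, 548 and 894 CPM in Smad3+/+ and 281, 455 and 731 in the libraries labelled Smad3SmKO, Kdr at 394, 423 and 570 beside 272, 343 and 821, and Tek at 114, 146 and 186 beside 130, 152 and 229. Their log2 differences over all cells of the gate were 0.46 (SE 0.33), 0.26 (SE 0.40) and 0.21 (SE 0.31). The Flt4 difference did not pass the test. In cells of 1 class it stood at 202, 259, 216, 48.5 and 150 CPM in Smad3+/+ and at 44.99, 82.4 and 141 in the other group (n = 6), with a difference of -1.21 (SE 0.46, edgeR adjusted p = 1.0). Over all cells of the gate the difference was -0.78 (SE 0.48), and it was below 0 in 4 of 4 batches by either count. Without the filter on low counts it was -0.79 (SE 0.21) and passed, at an edgeR adjusted p of 0.034, as did 120 of 19601 genes. The share of endothelial cells with lymphatic markers, in which Flt4 was high, also differed between these libraries, and its part was not tested.

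Endothelial Vegfa had a direction that depended on the cells counted. In cells of 1 class it stood at 3.65, 5.36, 6.00, 19.3 and 21.4 CPM in Smad3+/+ and at 5.66, 23.9 and 36.9 in the libraries labelled Smad3SmKO, with a difference of 1.39 (SE 0.39, edgeR adjusted p = 1.0) resting on 57 and 93 UMIs and above 0 in 4 of 4 batches. Over all cells of the gate, of which most also met the fibroblast gate, the difference was -0.37 (SE 0.23), above 0 in 1 of 4 batches. None of the 10 endothelial members passed in either time, where 0% of 11683 genes did. At 10 weeks Angpt2 was read at 11.5 and 14.3 CPM in Smad3+/+ and at 20.5 and 75.0 CPM under the Smad3SmKO label, with a difference of 1.77 (SE 0.87, edgeR adjusted p = 1.0). Over all cells of the gate the groups of 2 did not overlap, as for Vegfd (23.0 and 32.9 CPM beside 6.41 and 11.4) and for 27.5% of 11672 genes. In cells of 1 class neither gene overlapped, but the direction of Vegfd reversed, with both libraries labelled Smad3SmKO above both Smad3+/+ libraries. Angpt2 kept its direction. Without the library labelled Smad3SmKO 10 weeks replicate 2 the Angpt2 difference was 0.71, and without replicate 1 it was 2.51. Without the filter on low counts the Angpt2 difference, then 1.76 (SE 0.44), passed at an edgeR adjusted p of 0.040, as did 38 of 19601 genes. The same difference at 18 weeks was 0.21 (SE 0.46), and the change between the times, -1.56 (SE 0.99), did not pass.

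In leukocytes 6 members could be tested, and none passed (0% of 9770 genes). Vegfa stood at 3.72, 7.41 and 30.9 CPM in Smad3+/+ and 1.54, 11.2 and 84.1 CPM under the Smad3SmKO label at 18 weeks, with a fitted difference of -0.62 (SE 0.55). The fit compares libraries within batches, and the library at 84.1 CPM lies in batch 5, which has no Smad3+/+ library. The difference was above 0 in 2 of 4 batches. At 18 weeks the genotypes overlapped for each of the 10 members in each of the 4 classes, whereas they did not overlap for 0.186% of genes in VSMCs, 0.0616% in fibroblasts, 0.0685% in endothelium and 0.041% in leukocytes. At 10 weeks, over all cells of the gate, the groups of 2 did not overlap, among the members tested in these classes, for Kdr in fibroblasts (22.7% of genes) and in leukocytes (31.9%). In cells of 1 class the groups overlapped for Kdr in both classes. Among members too low to be tested they did not overlap for Flt4 in fibroblasts, lower under the Smad3SmKO label. The same held for Angpt2 and Vegfc in leukocytes, both higher under that label. The shares above are of genes tested and so do not cover these members, which were too low. In cells of 1 class, leukocyte Angpt2 rested on 0 and 0 UMIs in Smad3+/+ and on 2 and 1 under that label. The difference between the times was tested for the same members, and none passed in any class, where 0.00844% of genes passed in VSMCs and 0% in the other classes.

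**Figure D4:**
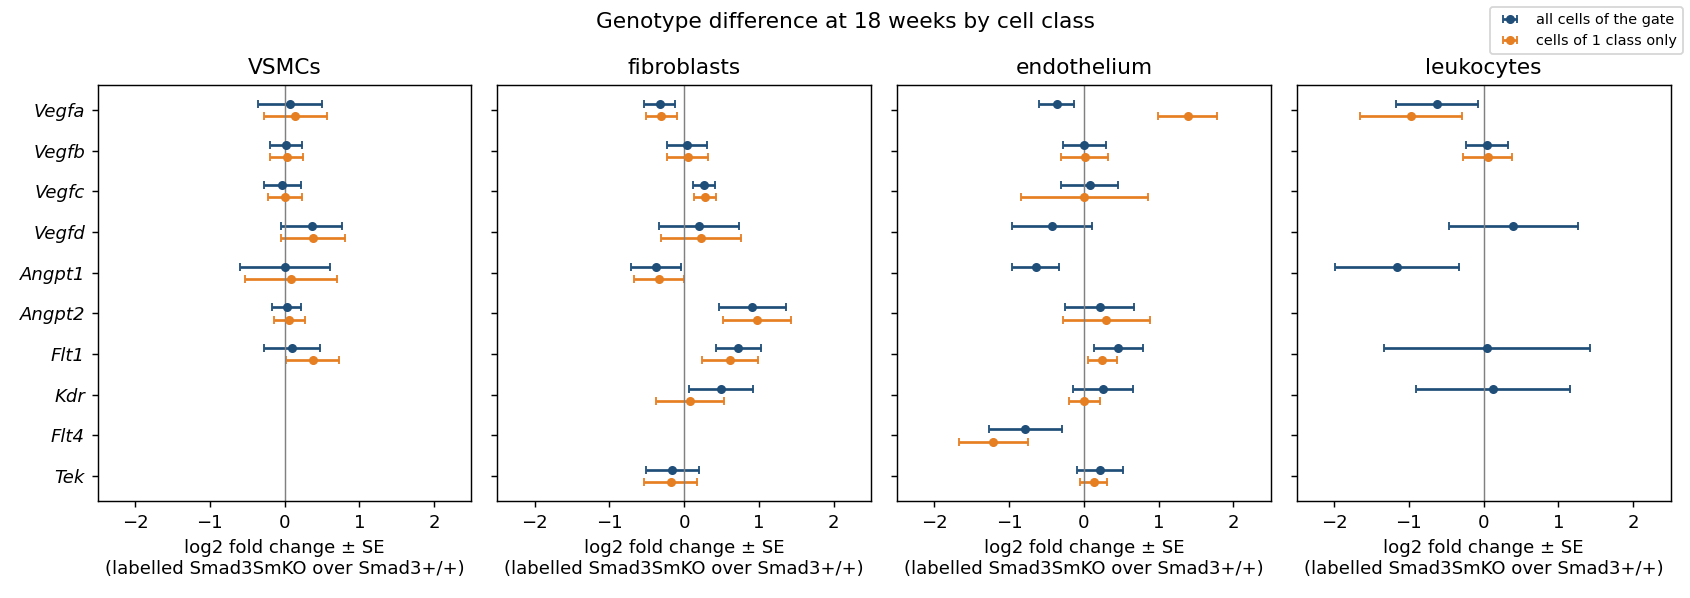
Log2 difference of libraries labelled Smad3SmKO from Smad3+/+ at 18 weeks (points, with bars of 1 SE from edgeR) for the members tested in each class, over all cells of the gate in blue and over cells of 1 class in orange. Most points lie within 1 to 2 SE of 0, and endothelial Vegfa lies at -0.37 over all cells and at 1.39 in cells of 1 class.

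Digestion time was a condition with 1 member past the threshold, a call that was lost without the libraries at odds with their tracer label. Vegfc in VSMCs was read at 18 weeks at 16.3, 31.1 and 39.1 CPM (lowest, median, highest) in the 7 libraries digested for 30 min and at 12.01, 12.1 and 18.01 in the 5 digested for 60 min, with means of 29.2 ± 9.005 (SD, n = 7) and 13.7 ± 2.59 (SD, n = 5). Of the 30 min libraries, those at 16.3 and 17.3 fell inside the 60 min range. Vegfc fell by 0.98 on the log2 scale from 30 to 60 min (SE 0.21, edgeR adjusted p = 0.015), the only one of 7 members to pass, where 3.05% of 11058 genes did. Without Smad3+/+ 18 weeks replicate 4 it fell by 0.93 (adjusted p = 0.060), and without replicate 5 by 0.87 (adjusted p = 0.081). Without the 4 libraries at odds with their tracer label, of which these are 2, the log2 difference was -0.72 (SE 0.29, edgeR adjusted p = 0.37). The 4 libraries of 10 weeks, all digested for 60 min in batch 4, were lower again, at 6.03 and 7.23 CPM in Smad3+/+ and 6.92 and 5.86 in those labelled Smad3SmKO, below all 12 libraries of 18 weeks. Digestion time cannot be told apart from batch, nor by the labels from the tracer, at 18 weeks, nor weeks from batch between the times.

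**Figure D5:**
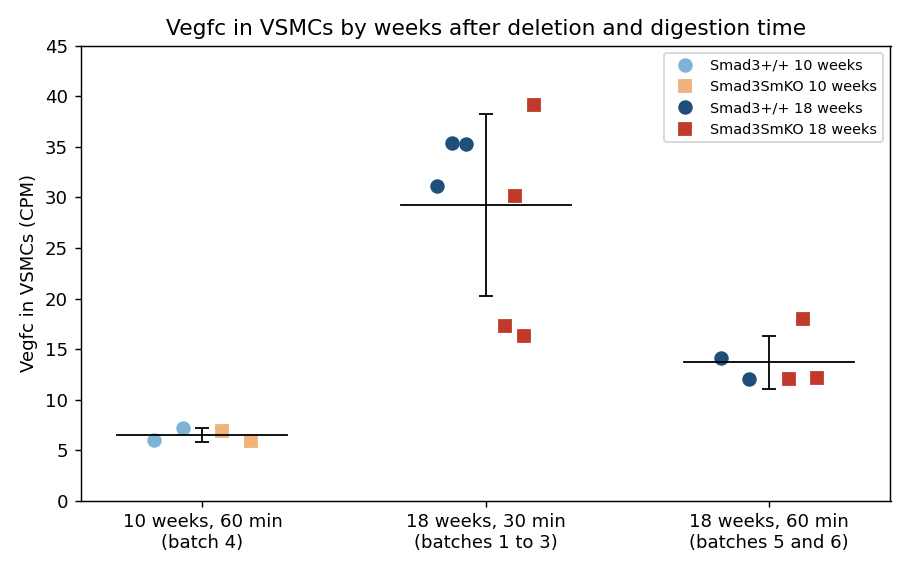
Vegfc in VSMCs (CPM, linear axis from 0) for the 4 libraries of 10 weeks and the 12 of 18 weeks by digestion time, with 1 point per library and the mean with bars of 1 SD. The 10 week libraries sit between 5.86 and 7.23, the 60 min libraries of 18 weeks between 12.01 and 18.01, and the 30 min libraries between 16.3 and 39.1.

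Angpt1 had log2 differences below 0 in 3 classes over all cells of the gates. None of them passed in edgeR with low counts filtered out and every library used. In VSMCs it stood at 0.943, 3.56 and 10.8 CPM after 30 min and 0.555, 0.932 and 1.46 after 60 min (log2 difference -1.79, SE 0.53, edgeR adjusted p = 0.072), on 35 and 41 UMIs. There it passed in DESeq2 (-1.84, adjusted p = 0.0090) and without the filter on low counts (-1.77, edgeR adjusted p = 0.024). Without Smad3+/+ 18 weeks replicate 1 it passed as well (-1.99, edgeR adjusted p = 0.037). In endothelium it stood at 6.49, 13.4 and 22.7 beside 4.13, 6.29 and 7.30 CPM (-0.99, SE 0.27, edgeR adjusted p = 0.070). Most of these cells also met the fibroblast gate. Endothelial cells of 1 class held 27 Angpt1 UMIs over all libraries. Without Smad3SmKO 18 weeks replicate 7, their levels overlapped, at 0 to 7.54 CPM after 30 min and 0 to 3.14 after 60 min. The part of fibroblast RNA in the endothelial difference was not tested. In fibroblasts the difference was -0.84 (SE 0.33, edgeR adjusted p = 0.19). Vegfa in leukocytes did not pass either, at 6.73, 21.1 and 84.1 after 60 min beside 1.54, 5.63 and 15.2 CPM after 30 min (2.34, SE 0.65, edgeR adjusted p = 0.056). It passed with all deposited barcodes (2.37, edgeR adjusted p = 0.048). Leaving out Smad3+/+ 18 weeks replicate 1 (2.85, edgeR adjusted p = 0.025) or 4 (2.70, adjusted p = 0.029) also brought it past the threshold. So did leaving out the library labelled Smad3SmKO 18 weeks replicate 6 (2.53, edgeR adjusted p = 0.049). In endothelial cells of 1 class Vegfa stood higher after 60 min, at 19.3, 28.0 and 36.9 CPM beside 3.65, 6.00 and 31.6 CPM, and there it passed (1.57, SE 0.37, edgeR adjusted p = 0.040, where 1.87% of 8249 genes passed), whereas over all cells of the gate its difference was -0.11 (SE 0.34). None of the 10 members passed in fibroblasts (1.57% of 15267 genes) or in endothelium over all cells of the gate (2.6% of 11614), and none of 5 in leukocytes (6.56% of 10018).

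The neighbouring genes of the pathway gave no genotype call in the filtered counts. Of 5 lists (12 co-receptors, further ligands and Tie partners, 10 genes that process Vegfc and Vegfd, 16 hypoxia regulators and targets, 12 genes induced by Vegf in endothelium, and 10 genes of the Tie2, Akt and Foxo branch), no gene passed in any class at either time. In VSMCs 10, 6, 15, 5 and 9 of these genes were tested. The lowest p at 10 weeks belonged to Pcsk5, a protease that can cut pro-Vegfc, with a log2 difference of -1.57 (SE 0.28, edgeR adjusted p = 0.28). At 18 weeks the lowest in VSMCs were Bnip3, a hypoxia target of mitochondrial clearance, with 0.70 (SE 0.24), and Pfkfb3, a driver of glycolysis, with -0.98 (SE 0.34), both at an edgeR adjusted p of 0.96. In fibroblasts Lfng, a modifier of Notch receptors, differed by 1.15 (SE 0.22, edgeR adjusted p = 1.0) and Cdh5, the endothelial cadherin used in the endothelial gate, by 1.41 (SE 0.52). In endothelium Thbs1, an inhibitor of vessel growth, differed by 1.31 (SE 0.54) and Pgf, a ligand of Flt1, by -0.55 (SE 0.22), neither past the threshold.

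The lists were also compared between classes. Of the genes induced by Vegf in endothelium 11 of 11 tested were higher in endothelium than in VSMCs, where 64.9% of all genes passed in either direction, with a median log2 difference of 2.83 beside 0.01 over all genes, and 8 of 11 were higher and 1 lower than in fibroblasts (36.2% of all genes passed), with a median of 1.47 beside -0.03. Between fibroblasts and VSMCs 7 of 11 were higher and 0 lower (70.4% of all genes passed). This list was drawn up for a response of endothelium, so its higher level there was partly set by the choice of genes. The other lists were set against VSMCs in endothelium. Of the co-receptors 7 of 11 were higher and 2 lower, with a median of 1.16. This list holds Cdh5, a gene of the endothelial gate, so its higher level in endothelium was set by the gate. Of the processing genes 6 of 8 were higher and 1 lower, with a median of 1.41. The hypoxia genes were mixed, 7 of 15 higher and 4 lower with a median of 0.12, as was the Tie2 branch, with 5 of 10 higher and 3 lower.

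With digestion time at 18 weeks, 6 of 44 genes tested of these lists passed in VSMCs, beside 3.05% of all genes. Nrp1, the co-receptor of Vegfa and Kdr, fell by 0.99 on the log2 scale (SE 0.24, edgeR adjusted p = 0.033), Ddit4, a stress and hypoxia target, by 1.11, and Hlx, a homeobox gene of the Vegf response, by 1.37, while Itgb1 (integrin beta 1), Ctsd (cathepsin D) and Plvap rose by 0.68, 0.67 and 0.77. In fibroblasts 5 of 59 passed, beside 1.57% of all genes: Furin, a convertase of pro-Vegfc, rose by 0.78, and Hif1a, the hypoxia-inducible factor, by 1.28, with Ankrd37 (1.27), Rcan1 (1.47) and Esm1 (1.73). In endothelium 4 of 56 passed, beside 2.6% of all genes: Furin rose by 0.77, Hif1a by 0.86, Rcan1 by 1.04 and Itgb1 by 0.86. In leukocytes 7 of 48 passed, beside 6.56% of all genes, all higher after 60 min, among them Hif1a by 1.34, Bnip3 by 1.56 and Adm, a secreted hypoxia target, by 1.62.

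The genes whose levels most resembled those of a member were sought over the 64 sums of 4 classes in 16 libraries among 12045 genes, by Pearson's r of log2 (CPM + 1), as a description in which sums of a library share its cells and depth. Kdr was most like Cdh5 (r = 0.97), Sox17 and Tie1, and Flt4 most like Stap2 (0.97), Clca3a1 and Podxl. Tek was most like Abcg2 (0.94), Ablim3 and Ly6c1, and Flt1 most like Slc9a3r2 (0.89), Efna1 and Pecam1, where Cdh5 and Pecam1 are genes of the endothelial gate. Among ligands, Vegfa was most like Cdc42ep2 (0.80), Vegfb most like Gamt (0.88), Vegfc most like Rab13 (0.90) and Vegfd most like Sfrp1 (0.87). Angpt1 was most like Vit (0.89), and Angpt2 most like Synm (0.88), an intermediate filament gene of muscle, with Foxc1 and Itga1 next.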

How the data were processed

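Each library was 1 mouse aorta, and p-values measure the spread between libraries. The authors deposited UMI counts per gene and cell for each library, made with Cell Ranger (version 6 in the processing notes, 4.0.0 in the matrix headers) on mm10 with a GFP sequence added, and also used Seurat 4. No deposited value was normalized, and 0 columns were left unused.

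Cells with 600 to 6000 genes, 2000 to 50000 UMIs and under 25% mitochondrial UMIs were kept, as in the study. The gates were Myh11 of at least 5 UMIs and above Dcn (VSMCs), Dcn of at least 5 and above Myh11 (fibroblasts), Pecam1 plus Cdh5 of at least 2 (endothelium) and Ptprc plus Tyrobp of at least 2 (leukocytes). No doublet caller was run. A cell that met several gates counted in each of those classes, and all results were repeated in cells of 1 class. Shares of cells with a UMI came from all libraries pooled and cover no spread between mice.

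Counts were summed per library and class, for libraries with at least 10 cells of the class. They were tested in edgeR 4.0.16 (R 4.3.3, TMM scaling, quasi-likelihood F test with robust fitting, filterByExpr with a minimum count of 10), with Benjamini-Hochberg adjustment over all genes tested and a threshold of 0.05. The genotype fit held the batch, and the genotype within each time. Batch 5 held no Smad3+/+ library, so it informed only the spread. The digestion fit used the 18 week libraries with genotype as a term, and the class and VSMC side fits used the library as a block. CPM values are UMIs per 1000000 UMIs of the class in that library, and SE is the log2 fold change over the square root of F. The study's own test compared cells, not mice. The fits were tested on simulated data with known genotype changes at 18 weeks. Of 100 genes changed 2-fold, 51% passed in VSMCs, 56% in fibroblasts, 62% in endothelium and 28% in leukocytes. Of 100 changed 4-fold, 90%, 84%, 87% and 85% passed. The alternatives were another scaling (RLE), no filter on low counts, DESeq2 1.42.0, no batch term, either digestion time alone, cells of 1 class, stricter gates, all deposited barcodes and each library left out in turn. Leaving out the 4 libraries whose GFP counts in VSMCs went against the tracer label was added after seeing the data. The members are named in every comparison, and from each list the genes that passed, or else those with the lowest p. The members and the lists were chosen with earlier results of these data known. Tables were made in Python 3.11.15 with pandas 2.3.3, numpy 2.4.6 and scipy 1.17.1.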

Additional observations from a re-analysis of the deposited data

Results flagged for a closer look

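In 61 groups of 18 week libraries with at least 50 UMIs of a member in a class, the highest or lowest library was examined for its gap to the nearest of the others, relative to the range of its group (Dixon's test). Of these, 11 stood out. The test's rate of about 1 in 20 groups by chance holds for independent groups with normal spread. These groups share libraries, so no excess over chance can be read from the count. Their causes were not tested.

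Angpt2 in fibroblasts of the library labelled Smad3SmKO replicate 7 stood at 45.2 CPM, next to 17.01 in the following library, on 196 fibroblasts. The same library, with 13 leukocytes, gave 3 further values in that class that rest on few UMIs: Angpt2 at 35.2 CPM (5 UMIs, next library 6.20), Flt1 at 134 CPM (19 UMIs, next 17.8) and Kdr at 49.2 CPM (7 UMIs, next 7.50). Its 31 endothelial cells gave the lowest Tek level, 12.4 CPM, below 46.7 in the next library.

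Among fibroblasts, Flt1 stood at 41.1 CPM in the library labelled Smad3SmKO replicate 3 (next 23.0) and Vegfa at 108 CPM in replicate 1 (next 52.8). In endothelium over all cells of the gate, Vegfa stood at 66.3 CPM in Smad3+/+ replicate 3 (next 34.2), Angpt2 at 33.8 CPM in Smad3+/+ replicate 4 (next 16.04) and Vegfc at 63.8 CPM in the library labelled Smad3SmKO replicate 2 (next 38.1). Vegfa in leukocytes of the library labelled Smad3SmKO replicate 5 stood at 84.1 CPM on 499 UMIs, above 21.1 in the next library.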

How the results depend on the processing

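Of the values recomputed for single genes, 1013 kept their direction and their side of the threshold, 22 gained and 11 lost the threshold, and 21 reversed. Counts of members past the threshold stayed within 1.5 times in 575 recomputations and moved in 22. The causes of these changes were not tested.

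Digestion time in VSMCs (1 member) gave 3 without a filter on low counts, 2 in DESeq2 and between 0 and 2 with 1 library left out: 0 without Smad3+/+ 18 weeks replicate 4 or 5, and 2 without replicate 1. Without the 4 libraries at odds with their tracer label, an alternative chosen after seeing the data, it gave 0. Digestion time in endothelium (0 members) gave 1 in DESeq2, 1 in cells of 1 class and between 0 and 1 with 1 library left out (1 without the library labelled Smad3SmKO 18 weeks replicate 4), and in leukocytes (0 members) it gave 1 without the filter, 1 in DESeq2, 1 with all deposited barcodes and between 0 and 1 with 1 library left out (1 without Smad3+/+ 18 weeks replicate 1 or 4 or the library labelled Smad3SmKO 18 weeks replicate 6). Genotype in endothelium (0 members) gave 1 at 10 weeks (Angpt2) and 1 at 18 weeks (Flt4) without the filter. The 2 sides of the VSMCs (2 members) gave 5 without the filter and between 1 and 3 with 1 library left out: 1 without Smad3+/+ 18 weeks replicate 2 or the libraries labelled Smad3SmKO 18 weeks replicate 5 or 7, where Vegfc fell below the filter, and 3 without Smad3+/+ 18 weeks replicate 1. They gave 1 without the 4 libraries at odds with their tracer label. The genotype at 10 weeks could not be fitted without them.

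The Vegfa difference between genotypes in endothelium at 18 weeks, -0.37 on the log2 scale, reversed to 0.14 with the 60 min digestions alone and to 1.39 in cells of 1 class. With 1 library also left out, an alternative chosen after seeing the data, it was 1.04, 1.05, 1.29965, 1.38, 1.39, 1.44, 1.45, 1.47 or 1.95. In cells of 1 class, Vegfd in endothelium against VSMCs reversed from 1.58 to -1.17, Angpt2 from -0.55 to 0.58, and Vegfc in endothelium against fibroblasts from -0.34 to 0.10. For Angpt2 in endothelium against VSMCs the edgeR adjusted p also rose above 0.05 without Smad3+/+ 18 weeks replicate 2 (-0.51), 3 (-0.47) or 5 (-0.50), and with stricter gates (-0.03). Vegfb in endothelium against fibroblasts passed in 9 alternatives, between -0.58 and -0.23. Mice of the 2 genotypes could not be paired, because the labels give no replicate numbers, and those used here only name the libraries. The class and VSMC side fits did compare cells within a library, and the genotype fit compared libraries within batches.

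Depth limits what was compared. Kdr, Flt4 and Tek were too low for a test in VSMCs, and the endothelial cells of 1 class were few. With 2 libraries a group at 10 weeks, a difference that did not pass is not shown to be absent. The same holds at 18 weeks, where the fits missed many simulated 2-fold changes.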
